A study of Mus musculus with 24 samples.

Results

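The antiviral interferon-stimulated genes described here are 44 genes, many of whose products sense, restrict or degrade viruses inside cells. They are members by symbol, from a list drawn up with earlier results of these data known, and all 44 were present among the 45706 genes counted. The deposited table of the Dex effect in wild type listed 43 of them, and Epsti1 was matched through the gene annotation. The annotation classes 43 as protein coding and Mx2 as a polymorphic pseudogene. All 44 passed the filter on low counts, but 8 of them (Oas2, Oas3, Ddx60, Mx1, Mx2, Rsad2, Zbp1 and Epsti1) passed only through the groups that received lipopolysaccharide (LPS), where they were high.

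The RNA came from fibroblasts of mouse embryos (MEFs), which are connective tissue cells, here of C57BL/6 male embryos at day 13.5, cultured for 7 days after the head and inner organs were taken out. The study asked how the glucocorticoid receptor (GR) acts on the response to LPS, a bacterial cell wall component, in cells with the wild-type receptor (GR wt / wt) and in cells homozygous for the GR Zn allele (GR Zn / Zn, here the mutant), a name that refers to a zinc finger of the receptor's DNA-binding domain. Vehicle cultures received ethanol for 16 h, Dex cultures 1 uM dexamethasone, a synthetic glucocorticoid, for 16 h, LPS cultures ethanol for 16 h and LPS for 6 h at 100 ng/ul as the labels write it, and Dex+LPS cultures both agents for those times. Each of the 8 groups had 3 libraries. The labels do not link libraries to embryos, and an effect of the allele and one of the particular embryos or cultures cannot be told apart.

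Interferons made by a stimulated cell bind receptors on that cell and its neighbours. Signals from the receptor then activate transcription factors that bind the interferon-stimulated response element (ISRE) in the promoters of antiviral genes. LPS reaches the same genes through its receptor TLR4, the adaptor TRIF and the factor IRF3, which switches on the interferon beta gene, and fibroblasts are a classical source of that interferon. Glucocorticoids bound to GR are known to dampen inflammatory and interferon responses.

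Levels are CPM, reads of a gene per 1000000 counted reads of its library after TMM scaling, and fold changes are log2 values from edgeR with their standard error (SE). A gene was called when its Benjamini-Hochberg adjusted p over 15221 tested genes was below 0.05. The libraries held 18.9 to 25.5 M counted reads, apart from 3 with 43.9 to 58.0 M that carry later library numbers: wild type Dex+LPS replicate 3, mutant vehicle replicate 1 and mutant LPS replicate 2. The liver transcript Alb was at 152, 133 and 86.6 CPM in these 3 and between 0 and 152 CPM in the whole set. Liver transcripts were not confined to these 3. The summed level of 8 liver markers was 67.4 to 142 CPM in the wild-type vehicle libraries, none of them deep. Wild type Dex+LPS replicate 1 and mutant Dex+LPS replicate 2 deviated from their group means along transcript length, with rank correlations across 15173 genes of -0.495 and -0.508. The other libraries of these 2 groups deviated the opposite way, at 0.272 and 0.364 for wild-type replicates 2 and 3 and at 0.415 and 0.372 for mutant replicates 1 and 3, as deviations from a mean of 3 must in part, and the remaining groups lay between -0.225 and 0.218. The 2 negative libraries and the 3 deep ones are the 5 libraries called apart below, a choice that bears on the mutant counts. The summed level of 10 fibroblast markers was 25734 to 34992 CPM over the 24 libraries. A T cell marker, Cd3e, was at 0 in all groups, and the macrophage genes Lyz2 and Csf1r were present at 46.0 and 10.6 CPM in wild-type vehicle cultures.

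LPS raised all 44 antiviral genes in wild-type cells, where 14.0% of all tested genes were called higher and 12.4% lower. The median log2 change of the 44 was 3.28, in a range of 0.84 to 9.28, while the median over all genes was -0.01. For each of the 44 genes the lowest LPS library lay above the highest vehicle library, a separation that 26.5% of all genes showed in this direction and 25.8% in the other. For the 8 genes that passed the filter only through LPS groups a difference was built into the filter, and the other 36 rose as well. In bulk RNA, a larger share of responding cells and more RNA per responding cell cannot be told apart. The map of all 44 genes by library shows this step at the LPS columns of both genotypes.

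**Figure D1:**
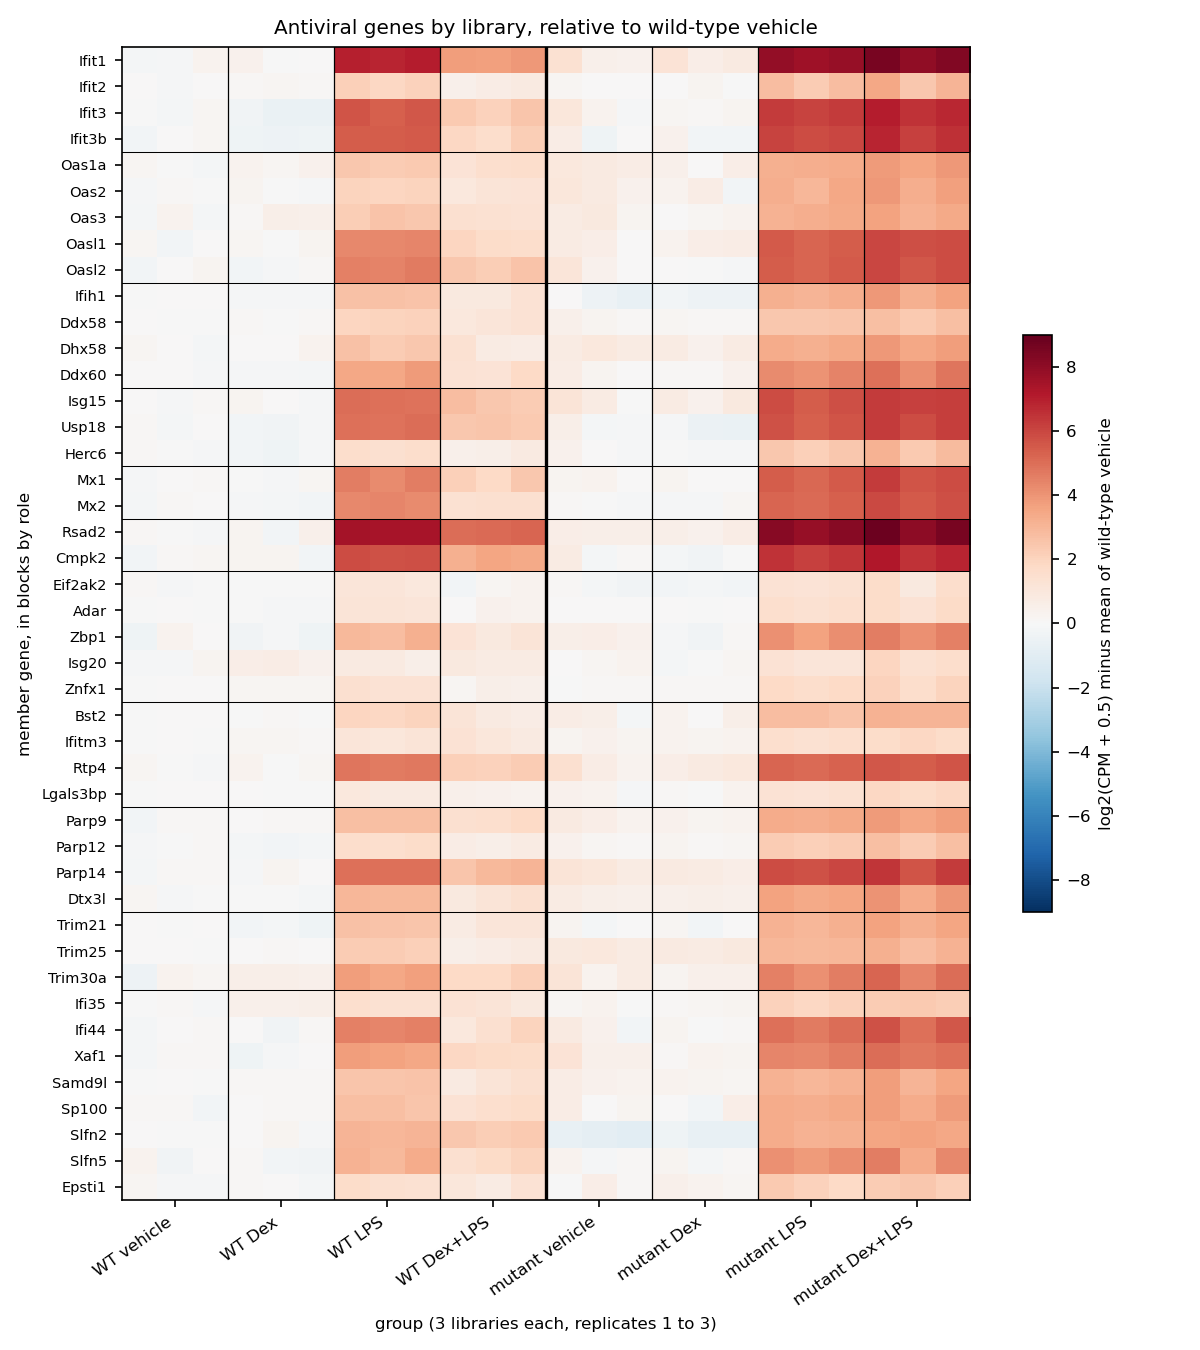
Level of each of the 44 antiviral genes (rows, in blocks by role) in each of the 24 libraries (columns), as log2(CPM + 0.5) minus the mean of the 3 wild-type vehicle libraries. All 44 rows turn red at LPS in both genotypes, are paler at Dex+LPS in wild type for the 41 genes called lower there, and have a mean above LPS at Dex+LPS in the mutant, where replicate 2 is paler than replicates 1 and 3 for most genes.

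The largest rises were in genes nearly silent at rest. Rsad2 encodes viperin, which makes a chain-terminating ribonucleotide, and was at 0.142, 0.0873 and 0.0413 CPM in the wild-type vehicle libraries. With LPS it was at 104, 102 and 103 CPM, a log2 change of 9.28 ± 0.32 (SE, adjusted p = 2.24e-16). The vehicle value rested on 6 reads in all, and Rsad2 is among the genes that passed the filter only through LPS groups. Cmpk2, its neighbour on chromosome 12 and a mitochondrial nucleotide kinase, rose by a log2 of 6.54 ± 0.25.

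The IFIT proteins bind viral RNA, and their 4 genes lie together on chromosome 19. Ifit1 was at 0.807, 0.830 and 1.28 CPM in wild-type vehicle and at 190, 169 and 193 CPM with LPS (log2 7.44 ± 0.25, adjusted p = 9.98e-16). Ifit3 went from 2.28, 2.01 and 2.61 CPM to 138, 118 and 133 CPM (log2 5.77 ± 0.21). Ifit3b went from 0.570, 0.786 and 0.910 CPM to 54.3, 54.7 and 55.5 CPM (log2 6.03 ± 0.27). Ifit3 and Ifit3b are near-identical copies, and since reads that map to several places were not counted, their separate levels are uncertain. Ifit2 had the highest resting level of the family, 19.1 ± 1.06 CPM (SD, n = 3), and the smallest rise (log2 2.06 ± 0.18).

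Mx1 and Mx2 belong to a family of GTPases that, where functional, block virus replication, and C57BL/6 mice are known to carry defective alleles, so these values are RNA levels only. Mx1 had 3 reads over the wild-type vehicle libraries and was at 12.4, 9.73 and 12.8 CPM with LPS. The ratio of group means was 276, with an exact 95% counting interval of 89.2 to 1272, and the fitted log2 change was 6.58 ± 0.43. Mx2 was at 0.142, 0.262 and 0.248 CPM in vehicle and at 13.7, 14.9 and 13.0 CPM with LPS (log2 5.55 ± 0.19).

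In the ISG15 system, Isg15 itself, a ubiquitin-like modifier, went from 1.57, 1.40 and 1.70 CPM to 65.7, 62.4 and 59.7 CPM (log2 5.26 ± 0.23). Usp18, the protease that removes it and also damps the interferon receptor, rose by a log2 of 5.37 ± 0.18, and the ligase gene Herc6 by 1.58 ± 0.17. The OAS genes on chromosome 5 encode synthetases that activate RNase L and their relatives. Oasl2, the highest of them, went from 1.28, 1.66 and 2.03 CPM to 49.8, 46.9 and 53.8 CPM (log2 4.84 ± 0.22). Oas2 and Oas3 were the lowest members per kilobase of exon under LPS, at 0.411 and 0.353 CPM per kb.

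The RNA sensor genes had higher resting levels. Ddx58, which encodes RIG-I, was at 39.1, 37.6 and 36.6 CPM in vehicle and at 146, 156 and 159 CPM with LPS (log2 2.02 ± 0.09). Ifih1 (MDA5) rose by a log2 of 2.70 ± 0.17, Dhx58 (LGP2) by 2.85 ± 0.22 and Ddx60, a helicase that aids RIG-I, by 5.16 ± 0.39. Among the TRIM ligases, Trim25, which ubiquitinates RIG-I, went from 26.7, 27.8 and 25.5 CPM to 131, 131 and 122 CPM (log2 2.26 ± 0.09). Parp14, an ADP-ribosyltransferase, went from 2.18, 2.75 and 2.89 CPM to 93.6, 93.3 and 95.8 CPM (log2 5.13 ± 0.20). Its partners in the PARP9-DTX3L complex, which overlap on opposite strands of chromosome 16, rose by 2.77 ± 0.12 for Parp9 and 3.01 ± 0.16 for Dtx3l.

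Several genes that were well expressed at rest rose little. Ifitm3 encodes a membrane protein that blocks virus entry and was by far the highest member per kilobase under LPS, at 446 CPM per kb against 82.8 for Isg15, which came next. It was at 138, 146 and 140 CPM in vehicle and at 298, 293 and 317 CPM with LPS (log2 1.10 ± 0.08). Eif2ak2, which encodes the RNA-activated kinase PKR, went from 63.1, 53.9 and 56.6 CPM to 125, 123 and 112 CPM (log2 1.05 ± 0.15). The RNA-editing enzyme gene Adar rose by a log2 of 1.14 ± 0.08 and Lgals3bp by 0.88 ± 0.10. The exonuclease gene Isg20 had the smallest change, from 1.57, 1.48 and 2.03 CPM to 3.34, 3.29 and 2.61 CPM (log2 0.84 ± 0.18, adjusted p = 0.000636). In the last group of mixed roles, Samd9l was highest under LPS, at 73.2, 73.2 and 75 CPM against 12.3, 12.7 and 12.0 CPM in vehicle (log2 2.57 ± 0.16).

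The other members covered a wide span of resting levels. Bst2 encodes tetherin, which holds budding virions at the cell surface, and went from 6.94 ± 0.276 to 28 ± 0.861 CPM (SD, n = 3). Rtp4, a transporter chaperone, went from 0.798 ± 0.133 to 34.4 ± 1.42 CPM. Zbp1, a sensor of Z-form nucleic acid, went from 0.23 ± 0.173 to 5.06 ± 0.882 CPM, and Znfx1, a helicase of antiviral defence, from 37.2 ± 1.11 to 94.5 ± 4.96 CPM. All 4 were called, and the step in Znfx1 was the smallest of them on the log2 scale (1.34 ± 0.10). The cytosolic antibody receptor gene Trim21 went from 5.03 ± 0.182 to 32.7 ± 1.78 CPM and Trim30a from 0.795 ± 0.326 to 15.3 ± 1.24 CPM. Ifi44 rose by a log2 of 5.12 ± 0.32, the XIAP-associated factor gene Xaf1 by 4.07 ± 0.20, the nuclear body gene Sp100 by 3.22 ± 0.25 and Slfn5 by 3.54 ± 0.33.

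Promoter sequences from RefSeq (GRCm38.p6, 250 bases before to 50 bases after the transcript start) were held for 35 of the 44 genes. The ISRE core, searched as TTTC, any 2 bases and TTTC on either strand with overlapping matches allowed, occurred in 16 of the 35 genes (45.7%) and in 1079 of 27025 genes with a promoter (3.99%). The NF-kB core, GGGA, any 2 bases and TTCC, occurred in 3 of 35 (8.57%) against 1.63% of all genes. The full palindrome of GR, AGAACA, any 3 bases and TGTTCT, occurred in 0 of 35 and in 3 of all genes (0.0111%), and its single arm AGAACA in 4 of 35 (11.4%) against 21.3%. A match describes letters in this window and not a bound site, and distant elements were outside it. The stretches below are examples of the ISRE matches (capitals), from genes with large and small LPS rises, and were chosen after the levels were known. They are not a sample of the 44 genes, and a relation of the motif to the Dex effect was not tested. All run 5′ to 3′ along the gene's own strand.
Ifit1: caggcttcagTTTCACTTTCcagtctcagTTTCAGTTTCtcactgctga
Ifit3: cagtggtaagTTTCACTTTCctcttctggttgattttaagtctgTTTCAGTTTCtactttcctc
Ifit3b: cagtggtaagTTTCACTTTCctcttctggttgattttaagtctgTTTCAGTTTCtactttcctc
Isg15: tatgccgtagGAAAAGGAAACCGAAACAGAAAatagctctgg
Rsad2: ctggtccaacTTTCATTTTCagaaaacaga
Ddx60: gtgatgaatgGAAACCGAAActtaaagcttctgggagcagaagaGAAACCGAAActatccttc
Oas1a: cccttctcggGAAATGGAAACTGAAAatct
Bst2: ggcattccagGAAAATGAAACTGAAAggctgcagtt
Ifitm3: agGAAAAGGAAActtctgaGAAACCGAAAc

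The Ifit1 stretch lies at chr19:34640775-34640823 on the plus strand, 114 to 66 bases before the start, and holds 2 separate matches. The stretches of Ifit3 (chr19:34583363-34583426, plus strand) and Ifit3b (chr19:34607759-34607822, plus strand) are identical at all 64 positions. Isg15 (chr4:156200865-156200906, minus strand) holds 3 overlapping matches, and Oas1a (chr5:120907526-120907555) and Bst2 (chr8:71537577-71537612), both on the minus strand, hold 2 overlapping matches each. Rsad2 (chr12:26456553-26456582, minus strand) holds 1 match and Ddx60 (chr8:61928024-61928086, plus strand) 2. Ifitm3 (chr7:141010715-141010744, minus strand) holds its 2 matches in the first 30 bases of the RefSeq transcript. Examples of members without an ISRE match in the window are Ifit2, Oasl1, Oasl2, Cmpk2, Ifi44 and Xaf1, which lost most of their LPS rise with Dex. Isg20, Ifi35 and Epsti1, also without a match, lost less of it. Among members with matches, Ifit1, Ifit3 and Isg15 lost most of the rise and Ifitm3, with 2 matches, lost little. These examples were picked with the levels known and leave out other members. A relation of the motif to the Dex effect was not tested.

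Dex given before LPS lowered 41 of the 44 genes in wild-type cells and raised none, against 10.6% of all tested genes called lower and 10.5% higher. The median log2 change against LPS alone was -1.59, in a range of -3.62 to 0.09, and the median over all genes was 0.01. For 42 genes every Dex+LPS library lay below every LPS library, as for 16.8% of all genes, with 15.2% apart in the other direction. The genes not called were Isg20, Ifitm3 and Epsti1. Of the 2082 other genes that LPS raised in wild type, 40.4% were called lower with Dex and 7.64% higher, with a median log2 of -0.15. The authors' deposited table for this comparison, which lists 43 of the genes, calls 41 lower with a median log2 of -1.61.

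**Figure D2:**
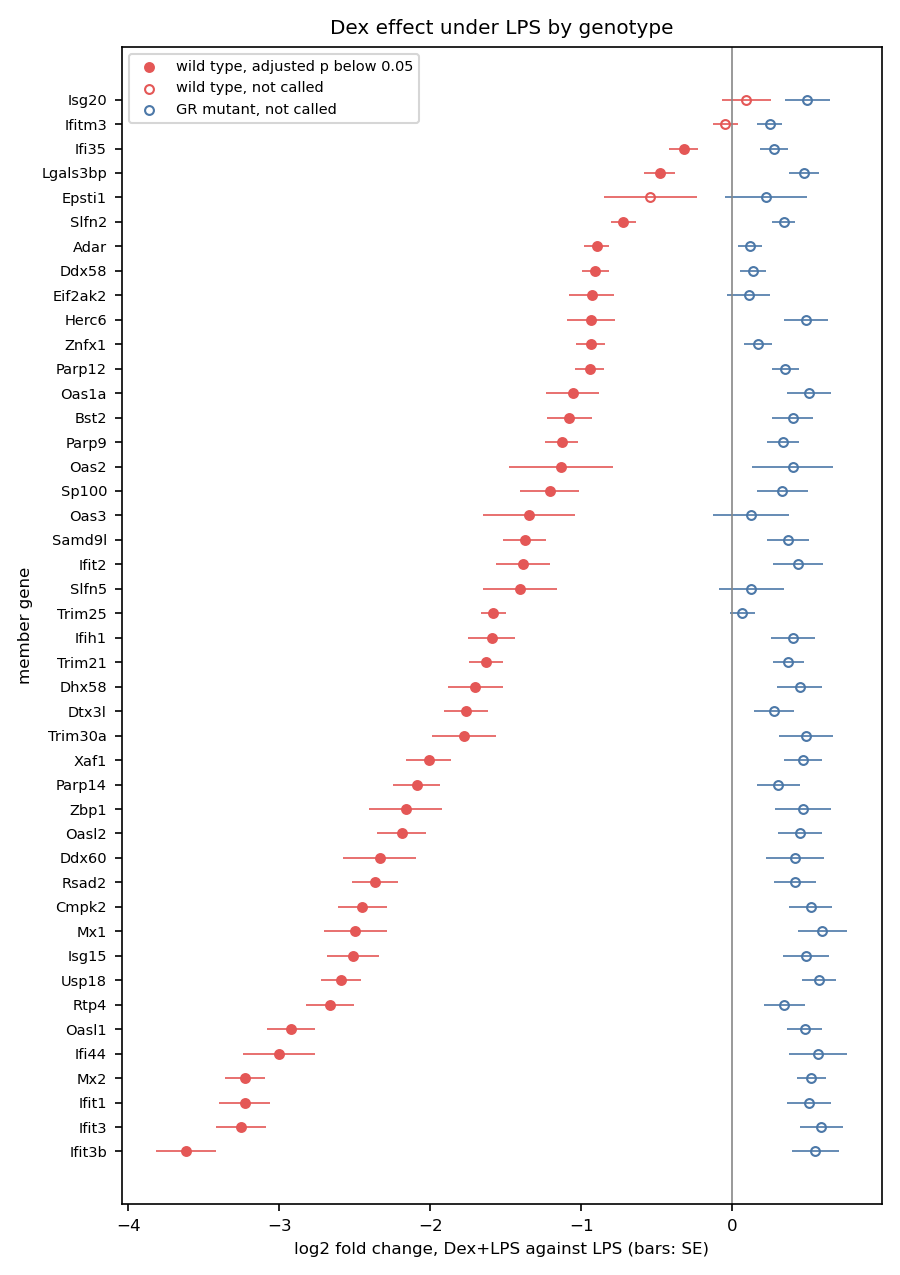
Log2 fold change of Dex+LPS against LPS for each antiviral gene in wild type (red) and the GR mutant (blue), with bars of 1 SE and filled points for an adjusted p below 0.05. The wild-type points run from -3.62 to 0.09 with 41 filled, and the 44 mutant points lie between 0.07 and 0.60 with none filled.

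The largest log2 falls among the 44 genes were in Ifit3b, Ifit3 and Ifit1. Ifit1 was at 18.9, 18.2 and 21.2 CPM with Dex+LPS, against 190, 169 and 193 CPM with LPS alone (log2 -3.23 ± 0.17, adjusted p = 7.43e-12). Ifit3 was at 14.1, 11.2 and 14.9 CPM (log2 -3.25 ± 0.16) and Ifit3b at 4.09, 3.22 and 5.32 CPM (log2 -3.62 ± 0.20). All of these libraries stayed above vehicle. The fourth gene of the family, Ifit2, fell by 1.39 ± 0.18 on the log2 scale, less than the median member.

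Mx2 fell to 1.33, 1.43 and 1.45 CPM (log2 -3.22 ± 0.13) and Mx1 to 1.87, 1.34 and 2.45 CPM (log2 -2.50 ± 0.21). Rsad2 fell to 18.4, 19.7 and 21.4 CPM (log2 -2.37 ± 0.15) and Isg15 to 13.5, 10.3 and 9.48 CPM (log2 -2.51 ± 0.17). The groups of these 4 genes did not overlap. Oasl2 was at 10.8, 9.54 and 12.1 CPM (log2 -2.19 ± 0.16), while Oas1a and Oas2 fell less, by 1.06 ± 0.17 and 1.13 ± 0.34 on the log2 scale.

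Well-expressed sensors and ligases also fell. Ddx58 was at 71.6, 79.4 and 93.8 CPM with Dex+LPS (log2 -0.91 ± 0.09) and Trim25 at 38.9, 42.5 and 46.4 CPM (log2 -1.58 ± 0.08). Parp14 was at 17.3, 23.3 and 25 CPM (log2 -2.09 ± 0.15). Samd9l was at 22.0, 28.1 and 34.3 CPM (log2 -1.38 ± 0.15). Eif2ak2 was at 49.3, 65.0 and 73.7 CPM (log2 -0.93 ± 0.15), which overlapped its vehicle libraries. Among members with lower levels, Ifi44 fell from 25.1 ± 1.35 to 2.83 ± 1.23 CPM (SD, n = 3), Oasl1 from 13.5 ± 0.27 to 1.75 ± 0.298 CPM and Rtp4 from 34.4 ± 1.42 to 5.29 ± 0.44 CPM. Usp18 fell from 49.5 ± 2.72 to 8.19 ± 0.373 CPM and Cmpk2 from 55 ± 3.97 to 10 ± 1.11 CPM. The falls in Xaf1, Trim30a and Trim21 were 2.01 ± 0.15, 1.77 ± 0.21 and 1.63 ± 0.11 on the log2 scale, and those in Bst2, Parp12 and Znfx1 were 1.08 ± 0.15, 0.94 ± 0.10 and 0.94 ± 0.10.

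Ifitm3 was at 348, 282 and 249 CPM with Dex+LPS, on both sides of its LPS libraries (log2 -0.05 ± 0.08, adjusted p = 0.740). Its highest and lowest values came from replicates 1 and 3, which are among the libraries that stood apart, and its log2 was 0.06 without replicate 3. Isg20 was at 3.60, 3.22 and 3.14 CPM (log2 0.09 ± 0.16, adjusted p = 0.749), and Dex alone raised it, to 2.77, 2.97 and 2.41 CPM (log2 0.66 ± 0.18, adjusted p = 0.00989). Epsti1 was at 0.756, 0.537 and 1.05 CPM against 1.42, 1.15 and 1.09 CPM with LPS (log2 -0.54 ± 0.31, adjusted p = 0.199). Epsti1 was called lower without the 3 deep libraries (log2 -0.83, adjusted p = 0.0349) and without the 5 libraries that stood apart (log2 -1.08, adjusted p = 0.0466), where 1 wild-type Dex+LPS library remains and is assumed to vary like the other groups. Ifi35 had the smallest called change, from 34.4, 30.7 and 31.0 CPM to 29.4, 26.1 and 22.0 CPM (log2 -0.32 ± 0.10, adjusted p = 0.0195), and lost its call without Dex+LPS replicate 3 (adjusted p = 0.0991), without LPS replicate 1 (0.0860), without the 3 deep libraries (0.0679) and with a fit of the compared groups only (0.161).

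**Figure D3:**
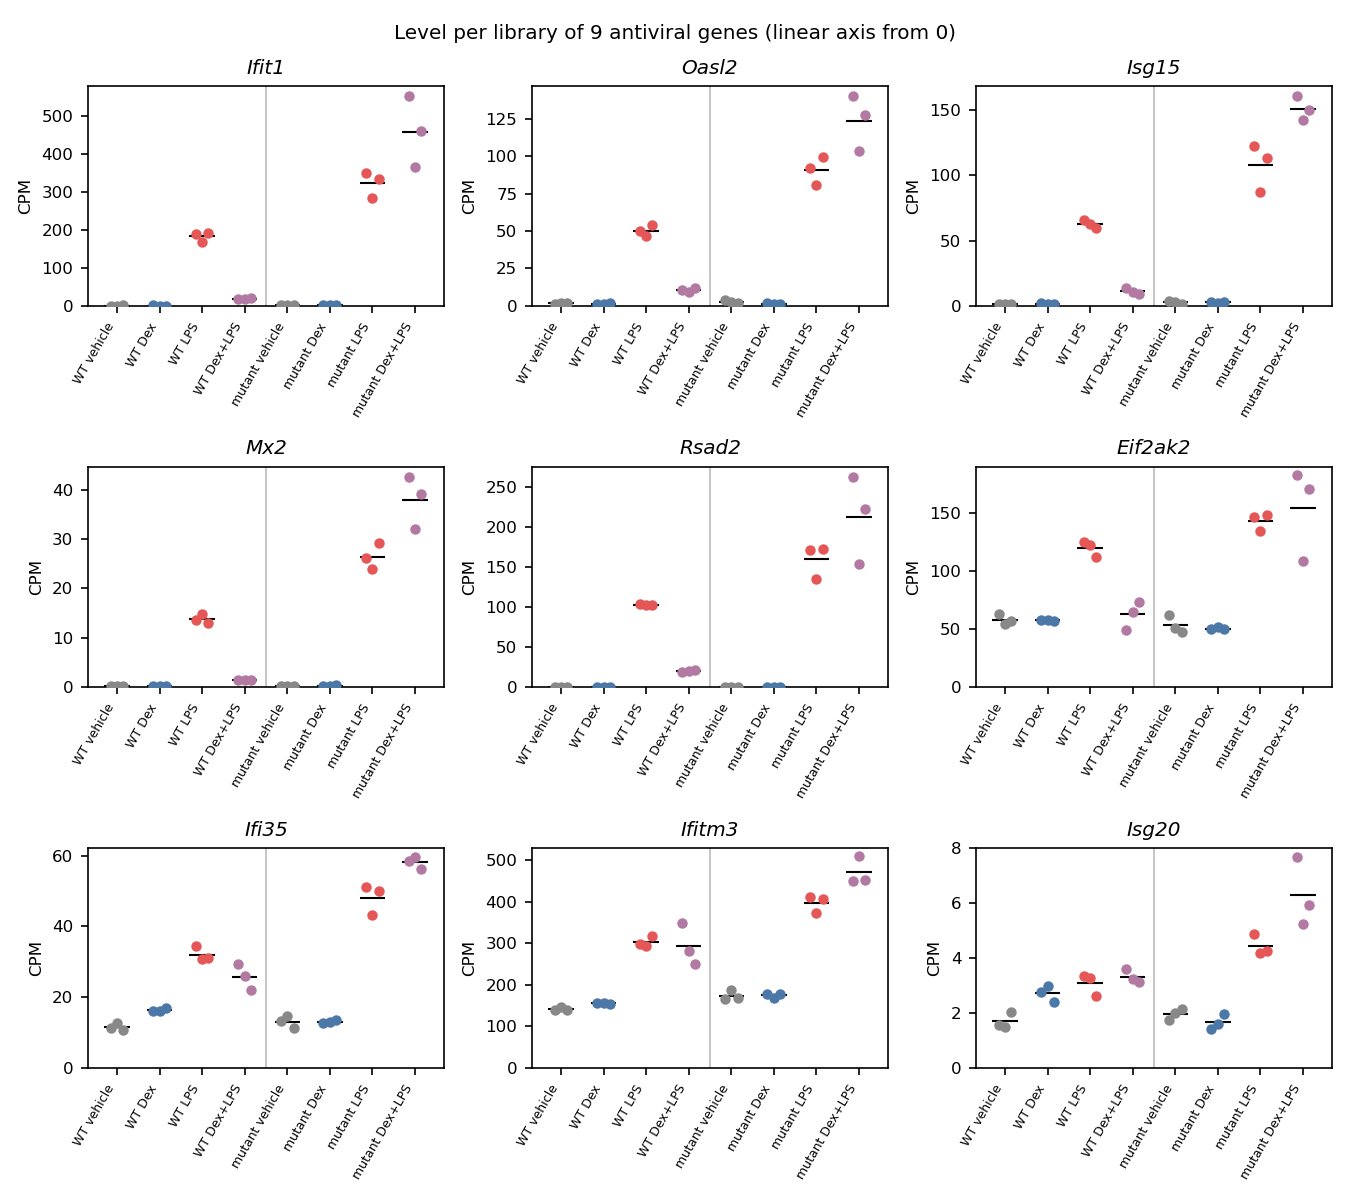
CPM in each library (points) and group mean (bar) of 9 antiviral genes in the 8 groups, on linear axes that start at 0. Ifit1, Oasl2, Isg15, Mx2 and Rsad2 drop from LPS to Dex+LPS in wild type and not in the mutant, whereas the change of Ifitm3 and Isg20 was not called in wild type.

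The share of the LPS rise that Dex removed was taken as the fall from LPS to Dex+LPS divided by the rise from vehicle to LPS, on the CPM scale. Its median over the 44 genes in wild type was 79.6%, and the medians from single Dex+LPS libraries were 81.7, 79.4 and 76.1%. Over 50% was removed in 39 genes and over 80% in 21. Among 514 other genes that rose by a log2 of more than 1 with LPS, the median share was 47.6%, with quartiles of 17.0 and 73.8%, and 18.5% of them lost over 80%. In a list of 27 NF-kB and cytokine genes the median was 36.9%, in a range of -65.6 to 99.3%. On a log2(CPM + 0.5) scale the median over the antiviral genes was 53.4%, since that scale weighs the first steps above the resting level more.

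The largest shares were in Ifit3b (93.6% ± 1.94, SD, n = 3), Eif2ak2 (92.3% ± 19.9), Ifit3 (91.3% ± 1.52), Mx2 (91.3% ± 0.466) and Ifi44 (91.1% ± 5.03). Eif2ak2, with its small rise, had library values from 74.6 to 114%, so its place in this order is not set beyond the spread. By role, the IFIT genes ranged from 81.5 to 93.6%, the Mx genes from 84.1 to 91.3%, Rsad2 and Cmpk2 from 80.8 to 82.6% and the ISG15 system from 72.8 to 85.4%. The TRIM ligases ranged from 75.9 to 84.3%, the PARP genes with Dtx3l from 64.0 to 81.1% and the RNA sensors from 62.2 to 83.7%. The OAS family was split, from 58.5% in Oas1a, 60.7% in Oas2 and 64.0% in Oas3 to 81.1% in Oasl2 and 88.3% in Oasl1. The smallest shares were in Isg20 (-17.6% ± 17.9), Ifitm3 (5.74% ± 31.1), Ifi35 (30.2% ± 18.2), Epsti1 (40.0% ± 23.2) and Slfn2 (44.5% ± 6.19).

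Even so, most genes remained above their resting level. In 42 genes every wild-type Dex+LPS library lay above every vehicle library, as for 19.5% of all genes, and Eif2ak2 and Adar overlapped vehicle. The median ratio of Dex+LPS to LPS was 0.329, in a range of 0.0768 to 1.08. Of 12 leukocyte markers in wild type, 9 were tested with Dex under LPS and 0 were called, against 10.6% of all genes called lower and 10.5% higher. Their summed level was 73.9 to 79.7 CPM with Dex+LPS and 76.4 to 78 CPM with LPS. Of 10 fibroblast markers, 4 were called lower and 1 higher, with summed levels of 27993 to 32087 and 31504 to 31671 CPM. Of 6 epithelial markers, 3 were tested and 2 called lower, with sums of 7.53 to 9.43 and 14.8 to 16.3 CPM. Among 6 endothelial markers, Cdh5 was called lower (log2 -1.08 ± 0.39, adjusted p = 0.0210), and Kdr, Tek, Emcn and Vwf were not called. The endothelial sums were 22.5 to 26.7 and 21.4 to 22.3 CPM. The part of any of these cell types in the result was not tested, leukocytes included.

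**Figure D4:**
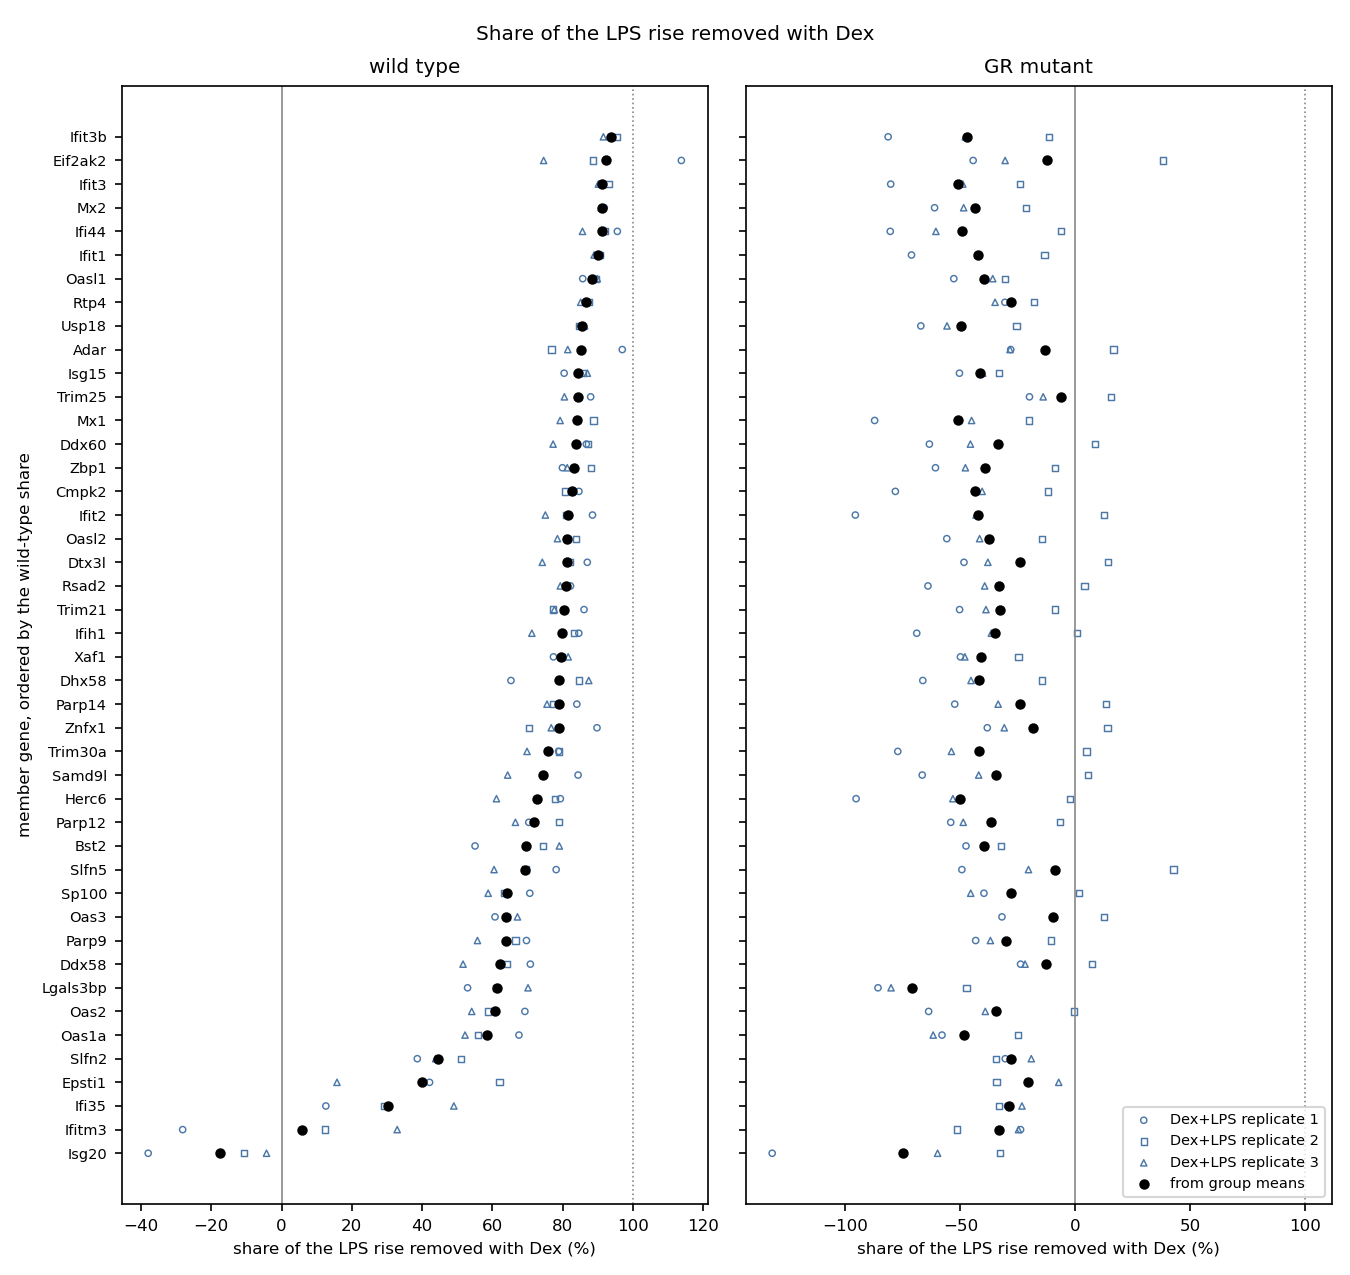
Share of the LPS rise removed with Dex for each antiviral gene, in percent, from group means (black) and from each Dex+LPS library (open symbols), in wild type (left) and the GR mutant (right). Wild-type shares have a median of 79.6% and fall off to Isg20 at -17.6%, and the mutant shares from group means lie below 0 for all 44 genes.

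A list of 33 genes of the interferon pathway, of which 27 were tested, held ligands, receptors, kinases, factors, inhibitors and sensors. LPS raised 20 of the 27 in wild type, against 14.0% of all genes. Dex under LPS lowered 14 and raised 1, against 10.6% and 10.5% of all genes, with a median log2 of -0.17. The order of these changes and those of the antiviral genes was not tested. Among factors that assemble on the ISRE, Stat2 fell from 115 to 45.8 CPM on average (log2 -1.32 ± 0.09, adjusted p = 7.31e-11) and Irf9 from 60.6 to 28.1 CPM (log2 -1.10 ± 0.09). Irf7, which amplifies interferon production, fell from 25.5 to 6.73 CPM (log2 -1.93 ± 0.17), and Irf1 fell by 0.72 ± 0.06 on the log2 scale. The DNA sensor gene Cgas fell by 0.63 ± 0.12, the feedback inhibitor gene Socs1 by 0.58 ± 0.21 and the factor gene Irf5 by 0.42 ± 0.11.

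The ligands themselves were at the limit of detection at 6 h of LPS. Ifnb1, the interferon beta gene, had 2 reads over the 3 wild-type LPS libraries, 2 with Dex+LPS, 9 in the mutant LPS libraries and 11 in mutant Dex+LPS. The limit set by 0 reads is 3 reads, or 0.0518 to 0.159 CPM depending on the library, and a difference in Ifnb1 was not detectable at this depth in wild type. Ifna2, Ifna4, Ifnl2 and Ifng had 0 reads in all 24 libraries.

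Without LPS, Dex gave no larger share of calls among the antiviral genes than among all tested genes. In wild type it raised 2 of 44 and lowered 0, against 7.92% of all genes called higher and 5.24% lower, with a median log2 of 0.05. These were Isg20, given above, and Ifi35, which encodes an interferon-induced leucine zipper protein and went from 11.3, 12.7 and 10.6 CPM to 16.2, 16.0 and 16.9 CPM (log2 0.50 ± 0.11, adjusted p = 0.00190). Without wild-type Dex replicate 2 the count was 1. Groups were apart for 7 genes upwards and 8 downwards, against 21.6% and 19.3% of all genes. At an unadjusted p below 0.05 there were 3 higher and 0 lower, and DESeq2 called 2, with 1960 of 15533 genes called in all. With the 5 libraries left out, none of them wild-type vehicle or Dex libraries, 4 were called higher and 1 lower. In that fit 4330 of 15758 genes were called in all, against 2003 of 15221 in the main fit. The wild-type vehicle levels of Mx1, Oas3, Rsad2, Oas2, Ddx60 and Epsti1 rested on 3 to 8 reads. The SE was 1.52 for Mx1 and 1.13 for Rsad2, so a change in such genes could hardly be called. In the mutant 0 of 44 were called by edgeR or DESeq2, as for 0.0% of all genes by edgeR, with 1 higher and 9 lower at an unadjusted p below 0.05 and a median log2 of -0.18. Groups were apart for 1 gene upwards and 3 downwards, against 5.95% and 7.47% of all genes. The share of all genes at an unadjusted p below 0.05 was not counted in either genotype.

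In the GR mutant, LPS again raised all 44 genes, where 19.0% of all genes were called higher and 17.7% lower. As in wild type, the filter built in a difference for the 8 genes that passed only through LPS groups. Rsad2, Mx1 and Mx2 are among these 8. The median log2 change was 3.41, in a range of 1.14 to 8.47, and no libraries of the 2 groups overlapped for any of the 44 genes, as for 24.4% of all genes upwards and 24.5% downwards. Rsad2 was at 0.406, 0.333 and 0.338 CPM in mutant vehicle and at 171, 135 and 173 CPM with LPS (log2 8.47 ± 0.25). Ifit1 went from 3.21, 1.47 and 1.39 CPM to 351, 284 and 334 CPM (log2 7.08 ± 0.22). Mx1, Cmpk2 and Mx2 followed with log2 changes of 6.74 ± 0.31, 6.53 ± 0.22 and 6.40 ± 0.17. The size of the LPS response differed between genotypes for 1 gene, Slfn2, against 0.348% of all genes called larger and 0.191% smaller in the mutant. Slfn2, which encodes a Schlafen protein needed for quiescence of immune cells, was at 4.20, 3.90 and 3.5 CPM in mutant vehicle against 7.50, 6.99 and 6.91 CPM in wild type, and at 75.6, 67.3 and 68.7 against 61.8, 61.2 and 63.5 CPM with LPS (genotype difference of the log2 change 1.03 ± 0.14, adjusted p = 0.000277). DESeq2 called 2 such genes, with 140 of 14483 genes called in all. Without the 5 libraries that stood apart 10 were called, with 405 of 15758 genes called in all, against 82 of 15221 in the main fit.

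No antiviral gene was called lower with Dex under LPS in the mutant. The count called was 0 in each direction, against 0.00657% of all genes called higher and 0.0% lower, and the adjusted p values ran from 0.0854 to 0.977. All 44 log2 changes were above 0, with a median of 0.41 and a range of 0.07 to 0.60, while 47.2% of all tested genes had a log2 above 0. At an unadjusted p below 0.05, 33 of the 44 were higher and 0 lower, a cut at which the share of all genes was not counted. For 23 genes every Dex+LPS library lay above every LPS library, as for 5.14% of all genes and 5.05% in the other direction. DESeq2 called 5 higher (Lgals3bp, Mx2, Oasl1, Slfn2 and Usp18), and the authors' deposited table also calls 5 of its 43 higher, with a median log2 of 0.42.

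This count moved most with the libraries used. Mutant Dex+LPS replicate 2, which deviated along transcript length, was the lowest of its group for most members, and 28 of the 44 genes were above the LPS mean in it, against 44 in each of replicates 1 and 3. Without it 10 genes were called higher, with 27 of 15464 genes called in all. Without all 5 libraries that stood apart 34 were called higher, with 160 of 15758 genes called in all. That left 2 libraries in each of the mutant LPS and Dex+LPS groups. Without replicate 1 the median log2 was 0.30 and 41 of the 44 were above 0. Leaving out mutant LPS replicate 2, a deep library, gave a median log2 of 0.32, with 0 of 15439 genes called. Leaving out the 3 deep libraries gave a median of 0.31, with 0 of 15317 genes called. All 44 were above 0 in both of these fits.

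Values by library show the spread. Ifit1 was at 351, 284 and 334 CPM with LPS and at 552, 366 and 459 CPM with Dex+LPS in the mutant (log2 0.51 ± 0.15, adjusted p = 0.386). Mx2 was at 26.1, 24 and 29.3 CPM with LPS and at 42.5, 32.1 and 39.2 CPM with Dex+LPS (log2 0.52 ± 0.10, adjusted p = 0.0854), and its groups did not overlap. Isg15 was at 122, 87.4 and 113 CPM and then at 160, 142 and 150 CPM (log2 0.49 ± 0.15, adjusted p = 0.472), also without overlap. For Eif2ak2 the libraries interleaved, at 146, 134 and 148 CPM with LPS and at 183, 109 and 170 CPM with Dex+LPS (log2 0.11 ± 0.14, adjusted p = 0.961).

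The share of the rise removed was below 0 for all 44 genes in the mutant, with a median of -35.7% and library medians of -55.1, -9.81 and -40.4%. The median ratio of Dex+LPS to LPS was 1.32, in a range of 1.05 to 1.51. On a log2(CPM + 0.5) scale the median share was -10.2%. Of the 27 tested pathway genes 0 were called with Dex under LPS in the mutant, against 0.00657% of all genes called higher and 0.0% lower. Irf7 had a log2 change of 0.49 ± 0.15 (adjusted p = 0.407).

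The Dex effect under LPS differed between the genotypes for 41 of the 44 genes, all with a higher log2 in the mutant, against 5.36% of all genes called in this direction and 5.03% in the other. The median difference was 1.91, in a range of 0.29 to 4.17. The largest were in Ifit3b (4.17 ± 0.25, adjusted p = 1.80e-10), Ifit3 (3.84 ± 0.22), Mx2 (3.75 ± 0.16), Ifit1 (3.74 ± 0.22) and Ifi44 (3.57 ± 0.31). Isg20, Ifitm3 and Epsti1 did not pass, with differences of 0.40 ± 0.22, 0.29 ± 0.12 and 0.77 ± 0.41. Without the 5 libraries that stood apart, where 1 wild-type Dex+LPS library remains, the median difference was 1.95, in a range of 0.27 to 4.73. Without LPS, the Dex effect differed for 3 genes, Oas1a, Isg20 and Ifi35, all with a lower log2 in the mutant, against 2.6% of all genes called higher and 4.4% lower. The count of 3 fell to 0 without mutant Dex replicate 2. It was 1 without wild-type vehicle replicates 1 or 3, any 1 of the wild-type Dex replicates, mutant vehicle replicate 1 or mutant Dex replicate 1.

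At equal treatment, antiviral genes were called higher in the mutant in vehicle, LPS and Dex+LPS. In vehicle 18 genes were higher and 1, Slfn2, lower, against 8.69% and 10.1% of all genes, with a median log2 of 0.60. Groups were apart for 18 genes upwards and 1 downwards, against 17.0% and 19.8% of all genes. The largest differences were in Oas2 (1.84 ± 0.64), Oas3 (1.6 ± 0.65), Oas1a (1.47 ± 0.29), Rtp4 (1.33 ± 0.30) and Ifit1 (1.17 ± 0.37). The wild-type vehicle values of Oas2 and Oas3 rested on 6 and 5 reads, and both genes passed the filter only through LPS groups. Oas1a was at 1.01, 0.809 and 0.717 CPM in the mutant and at 0.380, 0.262 and 0.165 CPM in wild type (adjusted p = 0.000102). Much of this count rested on mutant vehicle replicate 1, a deep library with Alb at 133 CPM, which was the highest of its group for Ifit1, Isg15 and Rtp4. Without it 7 genes were called higher, Dhx58, Ifitm3, Oas1a, Parp14, Parp9, Trim25 and Xaf1, and Oas2, Oas3, Rtp4 and Ifit1 lost their call. Without wild-type vehicle replicate 1 the count called higher was 11.

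Under LPS 41 genes were higher in the mutant and 0 lower, against 12.6% and 11.9% of all genes. The median log2 was 0.66, in a range of 0.18 to 1.45, and for all 44 genes the mutant libraries lay above the wild-type libraries, as for 24.8% of all genes, with 24% apart in the other direction. The largest differences were in Oas2 (1.45 ± 0.30), the DNA and RNA sensor gene Zbp1 (1.10 ± 0.20), Oasl1 (1.09 ± 0.12), Oas1a (1.01 ± 0.16) and Oas3 (0.97 ± 0.27). Eif2ak2, Ifi44 and Slfn2 were not called. Trim25 was at 218, 202 and 218 CPM in the mutant against 131, 131 and 122 CPM in wild type.

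The gap was widest with Dex+LPS, where all 44 genes were higher in the mutant, against 15.0% of all genes called higher and 16.8% lower. The median log2 was 2.57, in a range of 0.68 to 4.69, and the 2 genotypes did not overlap for any of the 44 genes, as for 15.6% of all genes, with 17.2% apart in the other direction. The largest differences were in Ifit3b (4.69 ± 0.20), Mx2 (4.67 ± 0.13), Ifit1 (4.55 ± 0.18), Ifit3 (4.50 ± 0.17) and Oasl1 (4.49 ± 0.15). Ifit1 was at 552, 366 and 459 CPM in the mutant and at 18.9, 18.2 and 21.2 CPM in wild type. The smallest was in Ifitm3, at 449, 510 and 451 CPM against 348, 282 and 249 CPM (log2 0.68 ± 0.08).

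**Figure D5:**
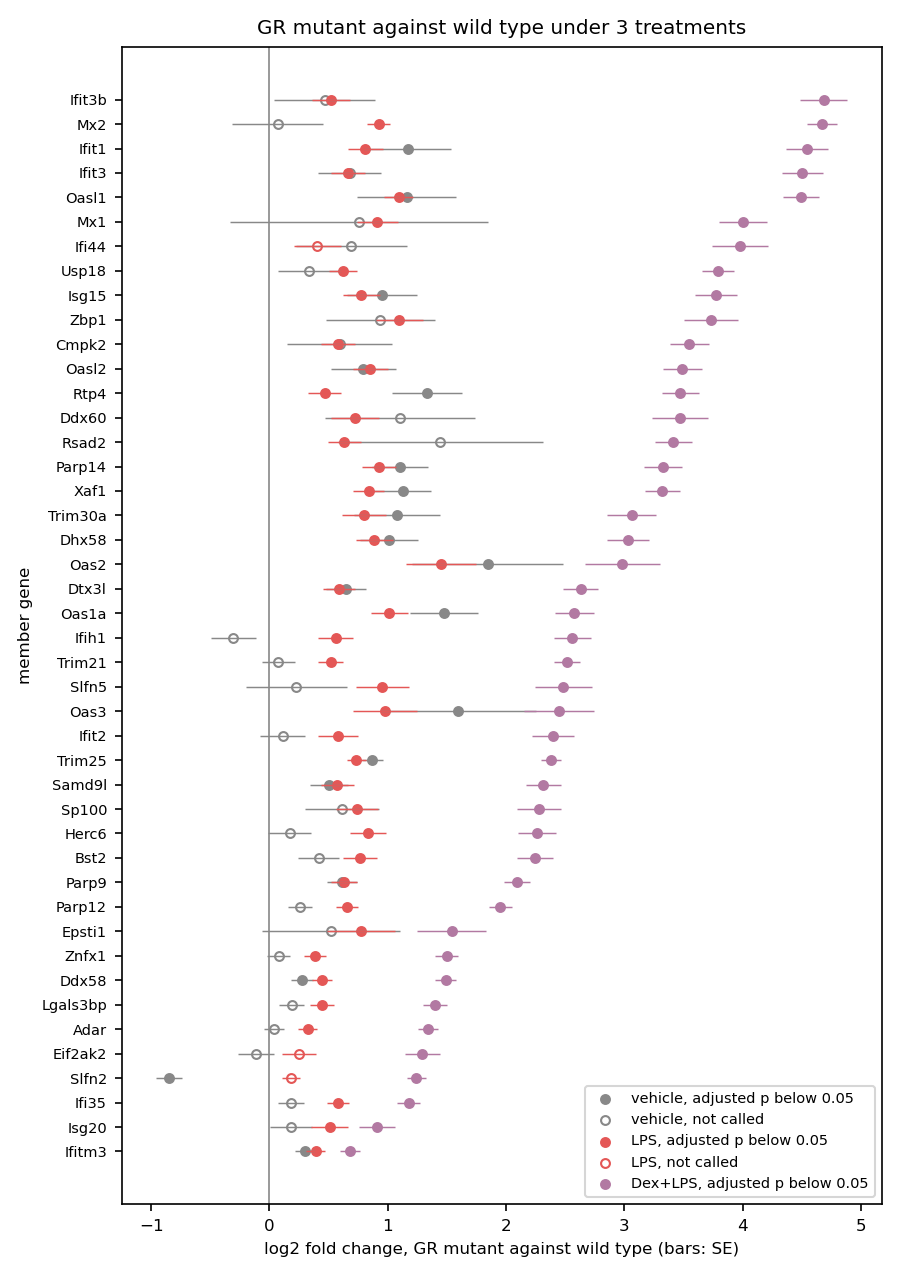
Log2 fold change of the GR mutant against wild type for each antiviral gene in vehicle (grey), LPS (red) and Dex+LPS (purple), with bars of 1 SE and filled points for an adjusted p below 0.05. The Dex+LPS points lie at 0.68 to 4.69, to the right of the LPS points at 0.18 to 1.45.

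Markers of other cells also differed between the genotypes. Of 12 leukocyte markers 9 were tested. In the mutant 8 of these were higher in each of vehicle, LPS and Dex+LPS, against 8.69, 12.6 and 15.0% of all genes. The summed level of the 12 leukocyte markers in vehicle was 190 to 200 CPM in the mutant and 84.3 to 87.0 CPM in wild type. Under LPS it was 157 to 167 against 76.4 to 78 CPM, and with Dex+LPS 159 to 181 against 73.9 to 79.7 CPM. Lyz2, the lysozyme gene of macrophages, made up most of it, at a mean of 118 CPM in mutant and 46.0 CPM in wild-type vehicle cultures, and Cd3e was at 0. Summed levels in vehicle were lower in the mutant for endothelial markers, at 11.4 to 13.4 against 27.5 to 29.1 CPM. They were also lower for epithelial markers, at 4.01 to 4.28 against 14.1 to 16.5 CPM. By gene, Kdr (log2 -1.01 ± 0.12) and Emcn (-2.24 ± 0.12) were called lower in vehicle, and Cdh5, Tek and Vwf were not called. Krt18 (-1.58 ± 0.14) and Cldn4 (-4.52 ± 0.32) were lower there. Krt8 was not called in vehicle and was higher in the mutant under LPS (1.16 ± 0.54, adjusted p = 0.0441). Of 10 fibroblast markers 6 were higher and 1 lower in vehicle, against 8.69% and 10.1% of all genes. The part of these shifts in the genotype differences of the antiviral genes was not tested. Within the mutant, 0 of the 9 tested leukocyte markers were called with Dex under LPS. Of all genes 0.00657% were called higher and 0.0% lower there, so this count says little about these markers.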

How the data were processed

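Stranded TruSeq mRNA libraries were sequenced, per the labels' protocols. Tools listed in the submitters' processing notes are FastQC, DESeq2, DESeq and STAR (2.4.2a, also given as 2.4.2), with the build mm10. The authors deposited raw counts per gene and library in STAR's layout, and the reverse-strand counts were used here. The authors also deposited log2 fold changes and adjusted p-values for 12588 genes, quoted only where named. Entries that name no gene stayed out: 2.92 to 5.58% of reads were unmapped, 3.74 to 5.79% mapped to several places, 3.1 to 4.72% lay in no feature and 1.18 to 1.41% were ambiguous. A further 96 per-sample columns were not used.

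All 24 libraries entered 1 quasi-likelihood fit in edgeR 4.0.16 (R 4.3.3, robust, TMM scaling, prior count 2, default filter by group), with 1 coefficient per group, and 12 contrasts were adjusted over 15221 genes. Log2 fold changes of genes with few reads are drawn towards 0 by the prior count. Depth was 18.9 to 58.0 M counted reads, and count limits and intervals cover counting error only. DESeq2 1.42.0, RLE scaling, no filter, unstranded counts, left-out libraries, a library series term, compared groups only and a replicate block were the alternatives. The labels do not give the embryo or culture of a replicate. The spread behind each p-value is that between libraries, and it may be technical. The Dex contrasts and the mutant contrasts share groups. The members and lists were chosen with earlier results of these data known. All members may be named. Values by library are given for the highest member of each role group under LPS in wild type, the 3 largest and smallest shares, Mx1, Mx2, Ifit3 and Ifit3b, and a few others chosen after their values were seen (Epsti1 and, at the genotype comparisons, Oas1a and Slfn2). The 5 largest called changes per contrast and up to 8 pathway genes are named, and 1 that the rule selects is not reported here. Gene positions are from GENCODE vM21 on GRCm38 (mm10). The promoter stretches and their distances are from RefSeq transcript starts, which differ from the GENCODE starts for some genes.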

Additional observations from a re-analysis of the deposited data

Results flagged for a closer look

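The genotypes differed in the Dex effect under LPS for 41 antiviral genes by a test of the difference itself (edgeR interaction contrast, adjusted p below 0.05). Each value is the log2 change with Dex in the mutant minus that in wild type. In the IFIT family it was 3.74 for Ifit1, 1.82 for Ifit2, 3.84 for Ifit3 and 4.17 for Ifit3b. In the OAS family it was 1.56 for Oas1a, 1.53 for Oas2, 1.47 for Oas3, 3.40 for Oasl1 and 2.64 for Oasl2. Among the RNA sensors it was 2.0 for Ifih1, 1.05 for Ddx58, 2.15 for Dhx58 and 2.75 for Ddx60. In the ISG15 system it was 3.0 for Isg15, 3.17 for Usp18 and 1.43 for Herc6. For the Mx GTPases it was 3.09 for Mx1 and 3.75 for Mx2. For the nucleotide analogue enzymes it was 2.78 for Rsad2 and 2.97 for Cmpk2. Among other nucleic acid effectors it was 1.04 for Eif2ak2, 1.01 for Adar, 2.63 for Zbp1 and 1.11 for Znfx1. Among the membrane and transport genes it was 1.48 for Bst2, 3.01 for Rtp4 and 0.96 for Lgals3bp. For the PARP genes and Dtx3l it was 1.46 for Parp9, 1.30 for Parp12, 2.4 for Parp14 and 2.04 for Dtx3l. Among the TRIM ligases it was 2.0 for Trim21, 1.65 for Trim25 and 2.26 for Trim30a. In the remaining genes it was 0.60 for Ifi35, 3.57 for Ifi44, 2.48 for Xaf1, 1.74 for Samd9l, 1.54 for Sp100, 1.06 for Slfn2 and 1.53 for Slfn5. The 5 libraries that stood apart include 1 or more of each group in this contrast apart from wild-type LPS. Without them 1 wild-type Dex+LPS library remains, and the median difference over the 44 genes was 1.95.

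The LPS response itself differed between genotypes for Slfn2, with a log2 change 1.03 larger in the mutant. The Dex effect without LPS differed for Oas1a (-1.31), Isg20 (-0.88) and Ifi35 (-0.50), where the negative values mean a lower log2 change in the mutant. No group had more than 3 libraries, so single libraries were not tested as outliers by gene.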

How the results depend on the processing

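The calls with LPS in both genotypes (44 and 44 higher) and between genotypes with Dex+LPS (44 higher) did not change under any alternative run. The 41 lower with Dex under LPS in wild type ranged from 40 to 42, and the 41 genotype differences of that effect from 40 to 42. For Dex under LPS in the mutant (0 higher), the count was 1 with no filter, 5 with DESeq2, 34 without the 5 libraries that stood apart (160 of all genes, against 1 in all libraries) and 0 to 10 with 1 library left out. For Dex alone in wild type (2 higher, 0 lower), it was 4 and 1 without those 5 libraries, with 4330 of 15758 genes called in all. It was 4 and 3 with the compared groups only, with 4659 of 14208 genes called. With 1 library left out it was 1 to 2 higher. The genotype difference of the LPS response (1 higher) counted 2 with DESeq2, 2 without the 3 deep libraries and 10 without the 5. In these runs 140 of 14483, 55 of 15317 and 405 of 15758 genes were called in all. The genotype difference of the Dex effect without LPS (3 lower) counted 0 to 3 with 1 library left out. The mutant against wild type in vehicle (18 higher, 1 lower) counted 6 and 2 without the 3 deep libraries, 3 lower without the 5, 11 higher with the compared groups only and 7 to 23 higher with 1 library left out. The median share removed was 53.4% in wild type and -10.2% in the mutant on the log2(CPM + 0.5) scale, and 77.7 to 81.1% and -50.3 to -26.7% with 1 library left out. Of single genes, Ifitm3 with Dex under LPS in wild type (-0.05) turned to 0.013 with the library number series as a term and 0.059 without the 3 deep libraries, and ran from -0.19 to 0.059 with 1 library left out. The same left-out range was -0.014 to 0.14 for Isg20 there, and for Dex under LPS in the mutant -0.024 to 0.31 for Eif2ak2, -0.0076 to 0.25 for Oas3 and -0.14 to 0.42 for Slfn5. Causes of these moves were not tested.

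Replicate numbers share only a number: over 28 pairs per number, correlations of deviations with the same number ran from -0.576 to 0.348, and 5 of 24 libraries correlated best with their own number. With the replicate block, 3 genes (Ifit3, Mx2 and Usp18) were called higher with Dex under LPS in the mutant, 20 were higher in the mutant in vehicle, 40 under LPS, and 41 were lower with Dex under LPS in wild type. Depth limits Ifnb1 and the vehicle levels of Mx1, Oas3, Rsad2, Oas2, Ddx60 and Epsti1, which rest on 3 to 8 reads.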
